A study of Mus musculus with 6 samples.

Results

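The 3 negative control siRNA libraries of mouse primary articular chondrocytes were described on their own, out of 6 libraries in the series, as the baseline transcriptome of these cells. They were taken by their label, and a gene was kept when it had at least 1 read in each of them, which held for 14563 of the 24532 genes listed (59.4%). The chondrocytes came from knee joint cartilage (condyles of the femur, plateau of the tibia) of ICR mice at an age of 5 days and were grown in DMEM with 10% serum at 3% O2 and 5% CO2. Each set of cells was treated with hyaluronidase, transfected with 50 nM control siRNA for 12 h and then kept in fresh medium for 48 h, and the transfection was done 2 times. The study used these libraries as the reference for knockdown of *Sephs1*, and the knockdown libraries were not used here. The 3 control libraries were labelled as replicates, and the methods call them biological replicates. The methods also treated each set of primary cells as an independent trial. Every control cell had therefore been cultured, enzyme-treated and transfected, so the values describe transfected cells in culture and not cartilage tissue. In a bulk library, fewer cells of a type and less RNA per cell cannot be told apart.

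Articular chondrocytes are the only resident cells of joint cartilage, and they make and maintain the matrix around them. That matrix is built from fibrils of type II collagen with types IX and XI, and from aggrecan, a large proteoglycan that holds water between the fibrils. The transcription factor SOX9, with SOX5 and SOX6, drives the genes of this matrix, and type I and type III collagen are more typical of fibroblasts, bone and dedifferentiated chondrocytes. Chondrocytes of growing cartilage can also become hypertrophic, a state marked by type X collagen.

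Replicate 1 held 58214060 reads in all, replicate 2 held 80887889 and replicate 3 held 74535734. A read in at least 1 control library was found for 16535 genes, 7997 genes had none, and 1972 genes were read in 1 or 2 libraries. The kept genes held 99.99% of the reads of each library. Levels below are FPKM, read fragments scaled to transcript length and to the reads of the library, and comparisons of 1 gene between libraries use counts per 1000000 reads after TMM scaling (CPM), with factors of 0.986, 0.986 and 1.03. At this depth the limit that a count of 0 allows was 0.0515, 0.0371 and 0.0402 reads per 1000000 in the replicates, for counting error only. The coefficient of variation (CV) is the SD over the 3 libraries divided by their mean. Replicate 3 stood apart from the other two, as set out below, so the CVs of the genes named with one, the median CVs and the counts by spread are also given without it where that moves them by more than 1.5 times.

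All 5 chondrocyte markers chosen for the check, *Col2a1*, *Acan*, *Sox9*, *Comp* and *Prg4*, were expressed in every library. *Col2a1*, the chain of type II collagen, was the most abundant gene in each library, with 4706464, 7047712 and 5258080 reads. Its level was 16098, 17346 and 14026 FPKM in replicates 1, 2 and 3, which is 15823 ± 1677 FPKM (SD, n = 3). *Comp*, a glycoprotein that bridges collagen fibrils, stood at 1400.2, 1547 and 1346 FPKM. The CVs of *Col2a1* and *Comp* were 12.7% and 9.12%, against a median of 8.40% over the 85 genes above 1000 CPM. Without replicate 3 the CV of *Col2a1* was 5.28% and that median was 5.16%. *Acan*, the core protein of aggrecan, was at 1492, 1491 and 917 FPKM, so that replicate 3 lay well below the other two, which were nearly equal. *Sox9* was at 40.6, 37.0 and 28.5 FPKM, lowest in replicate 3. *Prg4*, which encodes the boundary lubricant lubricin of the superficial zone, was at 74.8, 79.4 and 179.9 FPKM, highest in replicate 3. By rank of FPKM in replicates 1, 2 and 3, *Comp* stood 21st, 14th and 21st, *Acan* 16th, 16th and 45th, *Prg4* 814th, 736th and 306th, and *Sox9* 1521st, 1641st and 2213th. In GRCm38 coordinates, *Col2a1* lies on chromosome 15 from 97975602 to 98004724, *Acan* on chromosome 7 from 79053226 to 79115099, *Comp* on chromosome 8 from 70373548 to 70382066, *Prg4* on chromosome 1 from 150449412 to 150466221 and *Sox9* on chromosome 11 from 112782210 to 112787757.

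The reads were concentrated in a few genes. *Col2a1* took 8.08%, 8.71% and 7.05% of all reads in replicates 1, 2 and 3. *Fn1*, which encodes fibronectin, took 6.05%, 5.83% and 4.503%. Together they held 13.4 ± 1.62% (SD, n = 3) of the reads. The 10 most abundant genes of each library held 22.5%, 22.5% and 19.4% of its reads, the 100 most abundant 37.9 ± 1.77% (SD, n = 3), and the 1000 most abundant 65.1 ± 1.29% (SD, n = 3). The number of genes that held 50% of the reads was 301, 326 and 384, and the number that held 90% was 4356, 4472 and 4634. Replicate 3 was the least concentrated library by each of these measures. As a share of summed FPKM, in which a long transcript counts no more than a short one, the first 10 genes held 11.6 ± 0.889% (SD, n = 3) and the first 100 held 32.7 ± 0.618% (SD, n = 3). The share of the first 10 genes thus differed between the units by more than the spread between libraries, and that of the first 1000 was 67.2 ± 0.796% (SD, n = 3) of the FPKM.

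**Figure D1:**
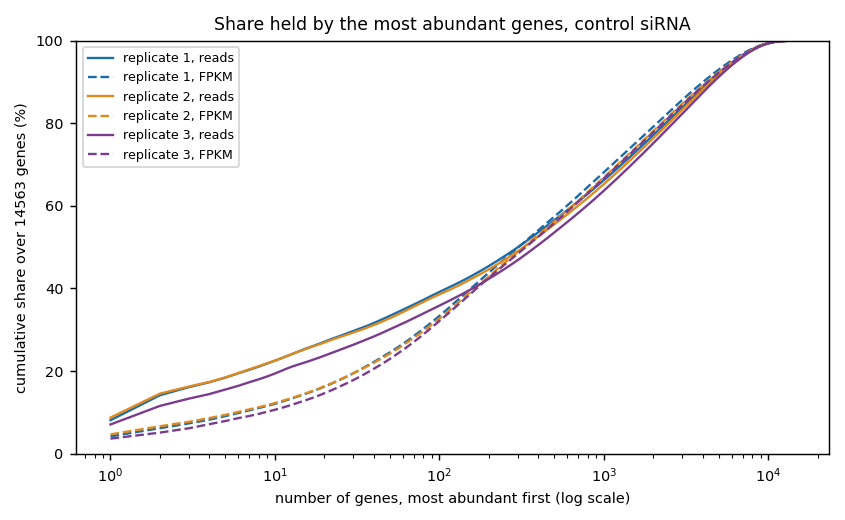
Cumulative share (%) of the reads (solid lines) and of the summed FPKM (dashed lines) against the number of genes, most abundant first, on a log axis, for the 3 control siRNA libraries over 14563 genes. The solid line of replicate 3 runs below those of replicates 1 and 2 at 10 genes (19.4% against 22.5% and 22.5%).

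Most kept genes had a mean under 10 FPKM. A mean of 1 FPKM or more was reached by 10926 genes (75.0% of those kept), 10 FPKM or more by 5117 (35.1%), 100 FPKM or more by 578 (3.97%) and 1000 FPKM or more by 35 (0.240%). The mean was under 0.1 FPKM in 1013 genes (6.96%), and the median gene had 5.20 FPKM. Between *Col2a1* at the top and the gene in place 100, the levels fell 28.7-fold. Protein-coding genes, 13584 of those kept, held 98.7 ± 0.0137% (SD, n = 3) of the reads, and 540 long noncoding RNA genes held 0.931 ± 0.00349% (SD, n = 3), with *H19* alone at 0.638% of all reads. These classes come from the RefSeq annotation, which matched all kept genes but 22.

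The highest levels belonged to matrix genes and to the translation machinery. After *Col2a1*, *Fn1* was at 7628, 7339.7 and 5659.5 FPKM, and *Sparc*, which encodes the collagen-binding protein osteonectin, at 4442, 4006 and 4071 FPKM. The elongation factor *Eef1a1* was at 3483, 3388 and 3839 FPKM and *Thbs1*, thrombospondin, at 3297, 2893 and 2965 FPKM. The first 6 genes kept the same order in every library, and the ranges of neighbours among the first 7 did not overlap. *H19*, an imprinted noncoding RNA of fetal growth, came sixth at 2866, 2657 and 2719 FPKM. *Lect1*, the older symbol of the chondromodulin gene *Cnmd*, a cartilage inhibitor of blood vessel growth, was at 2178, 2196 and 1986 FPKM. *Igf2*, a fetal growth factor, was at 2515, 2059.9 and 1756 FPKM, with the lowest value in replicate 3. From *Lect1* down to *Fmod* in place 20, the range of every gene overlapped that of the next, so the order of neighbours there is not resolved by 3 libraries. The rest of the first 20 by mean FPKM were *Tpt1*, *Rpl41*, *Vim*, *Mest*, *Col1a1*, *Timp3*, *Rps12*, *Col1a2*, *Comp*, *Ctgf*, *Bgn* and *Fmod*, between 1316 and 1917 FPKM.

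Of the 20 first genes, 16 were in the top 20 of every library, and 91 genes were in the top 100 of every library. Ranking by reads gave another list, with 15 of 20 genes in common. *Acan*, *Col11a1*, *Lox*, *Col9a1* and *Col3a1* entered it, and *Lect1*, *Tpt1*, *Rpl41*, *Vim* and *Rps12* left. *Rpl41*, which encodes a very small ribosomal protein, was in place 10 by FPKM and place 96 by reads, while *Acan* was in place 22 by FPKM and place 6 by reads. The transcript length implied by the deposited values, reads over FPKM, had a median of 1348 bases in the first 100 genes by FPKM and 2832 bases in the first 100 by reads. Only 58 genes were in both of these lists of 100.

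**Figure D2:**
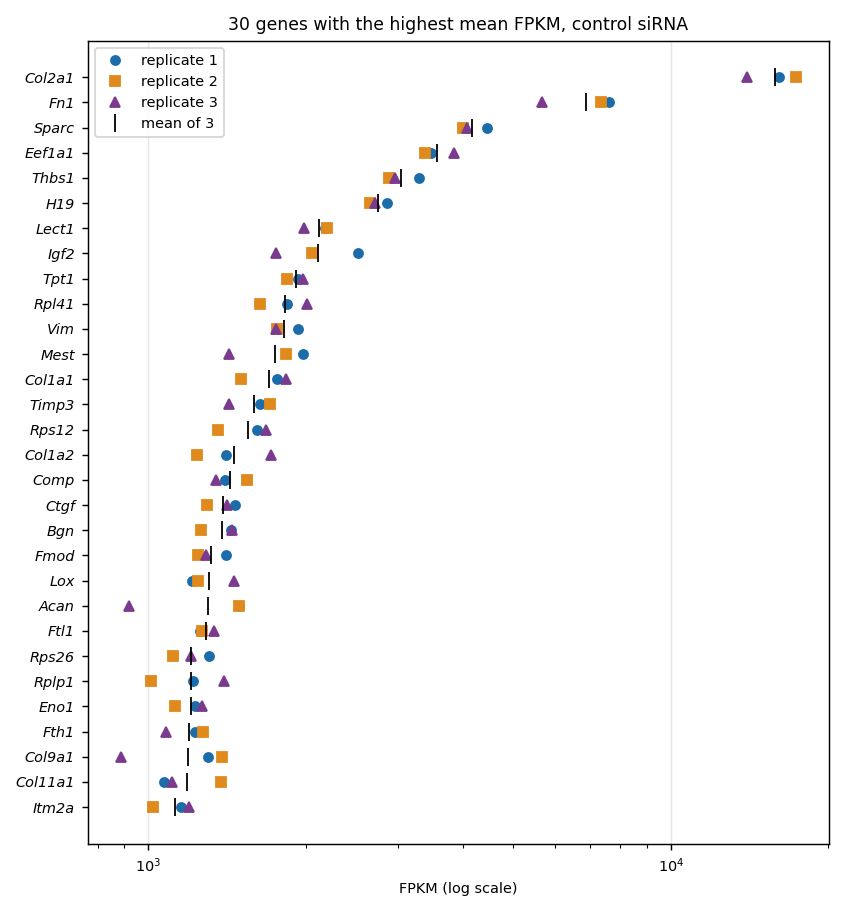
FPKM (log axis) of the 30 genes with the highest mean, in each control siRNA library (coloured symbols) and as the mean of 3 (black tick). *Col2a1* (15823 FPKM) and *Fn1* (6876 FPKM) stand clear of the rest, and the symbols of most other neighbours overlap.

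Collagens held the largest share of the reads among the matrix groups. Of 44 chains in the table, 39 were kept, and together they took 13.5%, 14.1% and 12.7% of the reads in replicates 1, 2 and 3. *Col2a1* accounted for 59.1% of that sum on average. In 8 of 9 pairs of chains of one collagen type, the FPKM ratio had a lower CV than the CPM of either chain, the exception being *Col6a1* to *Col6a3*. Some of these pairs share a chain, and the count rests in part on replicate 3. Between replicates 1 and 2 the CV of *Col9a1* was 4.82%, but its ratio to *Col9a2* went from 3.12 to 2.82. A lower CV was not limited to chains of one type. The ratio of *Col2a1* to *Col11a1* had a CV of 10.3%, against 12.7% and 15.3% for the genes. That of *Col2a1* to *Col1a1* went the other way, with 20.8% against 12.7% and 8.92%. *Col9a2* and *Col9a3*, 2 of the chains of type IX collagen, had a FPKM ratio of 1.02, 1.03 and 0.965, although the CVs of the 2 genes were 20.6% and 17.7%, or 11.7% and 11.1% without replicate 3. *Col9a1* was 2.86 ± 0.246 times *Col9a2* and 2.87 ± 0.319 times *Col9a3* (SD, n = 3), and *Col11a1* was 2.73 ± 0.139 times *Col11a2* (SD, n = 3). In type I collagen, made of 2 chains of *Col1a1* and 1 of *Col1a2*, the ratio of *Col1a1* to *Col1a2* was 1.25, 1.21 and 1.07, with a CV of 8.22% against 8.92% for *Col1a1* itself. *Col6a1* and *Col6a2* of type VI collagen, which lies around the cells, stood at a ratio of 1.26 ± 0.0419 (SD, n = 3). The basement membrane chains *Col4a1* and *Col4a2* stood at 0.466 ± 0.0180 (SD, n = 3). These ratios compare levels per length and rest on the annotated lengths of the transcripts.

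Fibroblast-type collagens were also abundant. *Col1a1* was at 1763, 1502 and 1834 FPKM, *Col1a2* at 1409, 1240.1 and 1718 FPKM and *Col3a1*, type III collagen, at 567, 492 and 889 FPKM. By FPKM all 3 were highest in replicate 3. By CPM, however, *Col1a1* was nearly equal in replicates 1 and 3, with a CV of 0.188% between them. *Col2a1* exceeded *Col1a1* by 9.13, 11.5 and 7.65 times in replicates 1, 2 and 3, and *Col3a1* by 28.4, 35.3 and 15.8 times. *Col10a1*, the hypertrophic collagen, was at 279.8, 251 and 60.2 FPKM, and *Col2a1* exceeded it by 57.5, 69.0 and 233 times, so that its share was far smaller in replicate 3.

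The proteoglycan and glycoprotein genes followed. All 30 proteoglycan genes of the list were kept and held 2.88%, 2.89% and 2.51% of the reads. By mean FPKM 2 small leucine-rich proteoglycans came first, although *Acan* was above both in replicates 1 and 2. *Bgn*, biglycan, was at 1441, 1261 and 1444 FPKM and *Fmod*, fibromodulin, at 1410.4, 1246 and 1291 FPKM. *Dcn*, decorin, was at 787, 774 and 698 FPKM and *Lum*, lumican, at 547, 518 and 551 FPKM. These 4 genes differed little between libraries, with CVs from 2.76% to 8.52%, against 27.5% for *Acan*. Without replicate 3 the CV of *Acan* was 0.0480% and that of *Dcn* 1.16%. Matrix glycoproteins, 49 of 50 genes kept, held 11.2%, 10.6% and 9.41%, of which *Fn1* made up 52.6%. *Ctgf* (*Ccn2*) and *Cyr61* (*Ccn1*), matricellular proteins that are induced by serum and tension, were at 1463, 1293 and 1414 FPKM and 963, 852 and 1145 FPKM.

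Genes that process and crosslink collagen were high as a group, with 28 of 28 kept and 23 at 10 FPKM or more. *Lox*, lysyl oxidase, was at 1214, 1242 and 1462 FPKM, the collagen chaperone *Serpinh1* at 1155, 982 and 1159 FPKM, and *P4hb*, a subunit of prolyl 4-hydroxylase, at 957, 894 and 910.4 FPKM. Proteases of the matrix were lower. The lysosomal protease *Ctsd* led that list at 775, 803 and 887 FPKM, and *Mmp2*, a gelatinase, and *Mmp13*, the main collagenase of cartilage, were at 85.4, 74.8 and 120.2 FPKM and 59.4, 59.8 and 68.6 FPKM. Tissue inhibitors of metalloproteinases were at far higher levels: *Timp3* was at 1637, 1709 and 1427 FPKM and *Timp1* at 951, 899.8 and 1300.5 FPKM. Summed over 4 *Timp* genes, the level was 2864, 2887 and 3061 FPKM, and over 16 *Mmp* genes it was 245, 229 and 333 FPKM. The ratio of the sums was 11.7, 12.6 and 9.18. *Tnfrsf11b*, which encodes the decoy receptor osteoprotegerin, was at 308, 306 and 363 FPKM, and its ligand *Tnfsf11*, RANKL, was at 0.484, 0.891 and 2.07 FPKM.

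Among the lists outside the matrix, ribosomal proteins held the largest share of the summed FPKM. The 79 genes of cytosolic ribosomal proteins were all kept and took 3.43%, 3.09% and 3.56% of the reads but 11.6%, 10.7% and 12.0% of the summed FPKM. They filled 35 of the first 100 places by FPKM. Oxidative phosphorylation genes of the nuclear genome, 75 of 75 kept, took 0.540 ± 0.0289% of the reads (SD, n = 3). Glycolysis genes, 22 of 22 kept, took 1.31 ± 0.0873% (SD, n = 3), led by *Eno1* (enolase) at 1229.6, 1123 and 1269 FPKM and *Ldha* (lactate dehydrogenase A) at 1086, 965 and 1083 FPKM. *Ldha* exceeded the other lactate dehydrogenase gene, *Ldhb*, by 33.1, 30.4 and 50.8 times. Cartilage has no blood vessels, and the cells were cultured at 3% O2. Any part of oxygen in these levels was not tested. *Hif1a*, which encodes an oxygen-sensitive transcription factor, was at 187, 209 and 169 FPKM. It exceeded *Epas1*, which encodes HIF-2α, by 65.0, 55.8 and 57.6 times. Secretory chaperones, 41 of 41 kept, took 2.20 ± 0.0570% of the reads (SD, n = 3), with *Calr* (calreticulin) at 857, 799.6 and 873 FPKM and *Hspa5* (BiP) at 727, 681 and 710.3 FPKM.

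Among 158 transcription factor genes listed, 152 were kept, and they held 1.12%, 1.19% and 1.32% of the reads. *Atf4*, the effector of the integrated stress response, was the highest at 274, 277 and 310.5 FPKM. *Ybx1* was at 247, 243 and 269 FPKM and the immediate-early gene *Egr1* at 192, 211 and 252 FPKM. *Hif1a* and *Jun* came next, followed by the ATF4 target *Ddit3* (CHOP) at 107, 123 and 141 FPKM. *Sox9* was in place 29 of this list and exceeded *Sox6* by 1.83, 1.59 and 1.51 times and *Sox5* by 7.18, 4.87 and 3.95 times. Genes of limb identity were also expressed. *Pitx1*, which specifies the hindlimb, was at 25.5, 23.4 and 33.3 FPKM, and the hindlimb gene *Tbx4* exceeded its forelimb counterpart *Tbx5* by 5.99, 6.10 and 5.05 times. Of the *Hox* clusters, the *Hoxa* cluster summed to 57.5 ± 5.19 FPKM (SD, n = 3), led by *Hoxa10* at 29.1, 28.5 and 23.0 FPKM. The *Hoxc* cluster summed to 25.7 ± 0.582 FPKM and the *Hoxd* cluster to 5.36 ± 1.01 FPKM (SD, n = 3). The *Hoxb* cluster, with 2 of 10 genes kept, summed to 0.192 ± 0.0484 FPKM (SD, n = 3).

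Imprinted genes of fetal growth were prominent, with 23 of 25 kept and 2.38%, 2.25% and 2.05% of the reads. *H19* exceeded *Igf2*, its neighbour in the same imprinted cluster, by 1.14, 1.29 and 1.55 times. The transcript length implied for *Igf2* differed by more than 1.2-fold between libraries, so its FPKM and these ratios are less certain. *Mest* was at 1981, 1833 and 1428 FPKM and *Plagl1* at 244, 272 and 195 FPKM. *Igf2* and *Mest* were lowest in replicate 3. *Igf1*, the growth factor of postnatal cartilage, was at 0.997, 0.946 and 2.08 FPKM, far below *Igf2* in every library.

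The genes of redox control and selenium use, the pathway that the study addresses, were expressed at levels from high to low. *Sephs1*, the siRNA target in the knockdown arm, was at 9.004, 8.02 and 8.34 FPKM (2831, 3503 and 3361 reads) in these controls, in place 5686 of 14563. *Sephs2*, which makes the selenium donor of selenoproteins, was at 14.3, 11.2 and 12.5 FPKM. Of 28 genes of selenoproteins and selenium use, 26 were kept, and 15 reached 10 FPKM. *Sep15* (*Selenof*), an ER selenoprotein, led at 267, 244 and 221 FPKM, *Gpx4*, which reduces lipid peroxides, was at 251, 228 and 248 FPKM and *Gpx1* at 174, 158 and 153 FPKM. The antioxidant list, 39 of 39 kept, was led by the ferritin chains *Ftl1* at 1258, 1269 and 1336 FPKM and *Fth1* at 1230.0, 1273 and 1079 FPKM, and by the metallothionein *Mt1* at 718, 805 and 804 FPKM.

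Markers of other cell types were checked with 15 lists. The chondrocyte list, 20 of 20 genes kept, held 12.6%, 13.7% and 10.8% of the reads in replicates 1, 2 and 3, and 64.3% of that sum was *Col2a1*. The fibroblast list, 12 of 12 kept, held 2.32%, 2.02% and 2.72%, chiefly *Col1a1* and *Col1a2*. The synovial lining list, 4 of 5 kept, held 0.0314%, 0.0334% and 0.0747%, and 97.4% of that sum was *Prg4*. The hypertrophic list, 9 of 9 kept, held 0.211%, 0.204% and 0.149%. In it *Spp1*, osteopontin, was at 607, 611 and 677 FPKM, while *Ihh*, the signal of prehypertrophic cells, had only 39, 55 and 39 reads.

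Defining markers of blood and vessel cells were at or near 0, while some other members of these lists were read in every library. The 5 erythroid genes had 0 reads in all 3 libraries. The endothelial genes *Cdh5* and *Emcn* had 0 reads, *Pecam1* had 6, 17 and 3 and *Vwf* 19, 26 and 4. Of 9 macrophage and leukocyte genes, 4 had 0 reads in all libraries, *Ptprc* (CD45) among them, while *Lyz2* was at 1.78, 2.96 and 3.60 FPKM, *Cd14* at 2.09, 1.98 and 2.49 FPKM and *Cd68* at 1.45, 1.32 and 1.24 FPKM. The muscle gene *Ckm*, the keratins *Krt5* and *Krt14*, the osteocyte gene *Sost* and the neuronal gene *Rbfox3* had 0 reads as well. Other members of their lists did not: the muscle gene *Acta1* was at 1.70, 1.23 and 2.79 FPKM, *Tnnt3* had 99, 107 and 165 reads, the keratin *Krt8* had 98, 132 and 5 reads and the neuronal tubulin *Tubb3* 84, 127 and 299. *Omd*, osteomodulin of the osteoblast list, was at 18.1, 35.7 and 27.2 FPKM, with *Bglap* (osteocalcin) at 0, 0 and 5 reads. In the adipocyte list *Fabp4* was at 10.1, 9.96 and 13.0 FPKM, with *Adipoq* at 0, 2 and 14 reads. *Acp5*, an osteoclast marker, was at 17.5, 16.6 and 17.9 FPKM, although *Calcr* of the same list had 0, 0 and 2 reads. *Acta2* and *Tagln*, markers of myofibroblasts and smooth muscle, were at 224, 181 and 165 FPKM and 121, 108 and 156 FPKM, with *Myh11* at 0, 8 and 8 reads. *S100b*, a glial marker that chondrocytes also express, was at 121, 121 and 85.7 FPKM and made up 98.2% of the neural and glial sum. *Xist*, which is expressed from the inactive X chromosome of females, was at 4.83, 8.82 and 15.5 FPKM, and the Y-linked *Ddx3y* was at 6.33, 15.3 and 12.4 FPKM, so every library held RNA of both sexes.

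**Figure D3:**
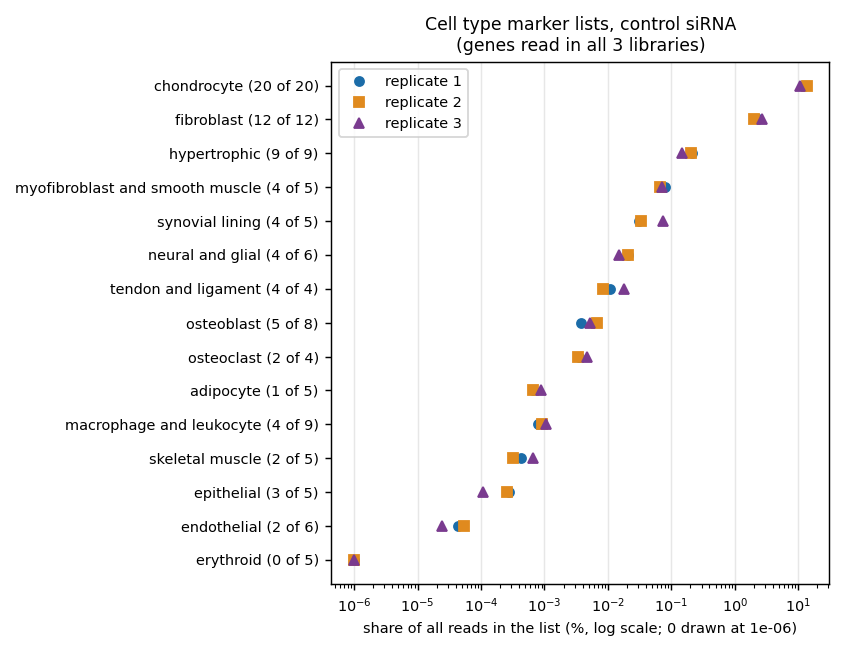
Share of all reads (%, log axis) held by 15 cell type marker lists in each control siRNA library, with the number of genes read in all 3 libraries in brackets. The chondrocyte list lies highest (10.8% to 13.7%), the fibroblast list next (2.02% to 2.72%), and the erythroid list, with 0 reads, is drawn at the left edge.

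The libraries were alike in order but differed beyond counting noise. Across the 14563 genes, Spearman's rho of the CPM was 0.992 between replicates 1 and 2, 0.986 between 1 and 3 and 0.991 between 2 and 3, as a description over genes, which are not independent replicates. A chi-square of the counts per degree of freedom was 49.4, 115 and 119 for these pairs, against about 1 from counting alone, so none of the libraries was a copy of another. The median CV was 11.4% over all kept genes and 7.33% over the 5117 genes at 10 FPKM or more. Without replicate 3 these medians were 7.05% and 4.51%, from 2 libraries. A range of more than 2-fold between the libraries was seen in 2014 genes (13.8%), but in only 120 (2.35%) of those at 10 FPKM or more. With 1 library left out, which leaves 2 to compare, these counts were 990 and 46 without replicate 1, 1421 and 85 without replicate 2, and 931 and 57 without replicate 3.

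The spread fell with abundance and then levelled off. From 0.1 to 1 CPM the median CV was 34.2% (2108 genes), from 1 to 10 CPM 14.96% (3522 genes), from 10 to 100 CPM 8.03% (6798 genes), from 100 to 1000 CPM 7.29% (1570 genes) and above 1000 CPM 8.40% (85 genes). Without replicate 3 these medians were 25.5%, 9.46%, 5.01%, 4.34% and 5.16%. The counting error alone gives a median CV of 20.04% in the first of these classes and 0.285% in the last. Below 0.1 CPM (480 genes) the observed CV of 35.0% was under the counting CV of 50.0%, where the rule that every library hold a read limits the range. Among the 100 genes with the highest FPKM, 70 had a CV under 10% and 5 had one over 20%. The number over 20% was 10 without replicate 1, 8 without replicate 2 and 2 without replicate 3.

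**Figure D4:**
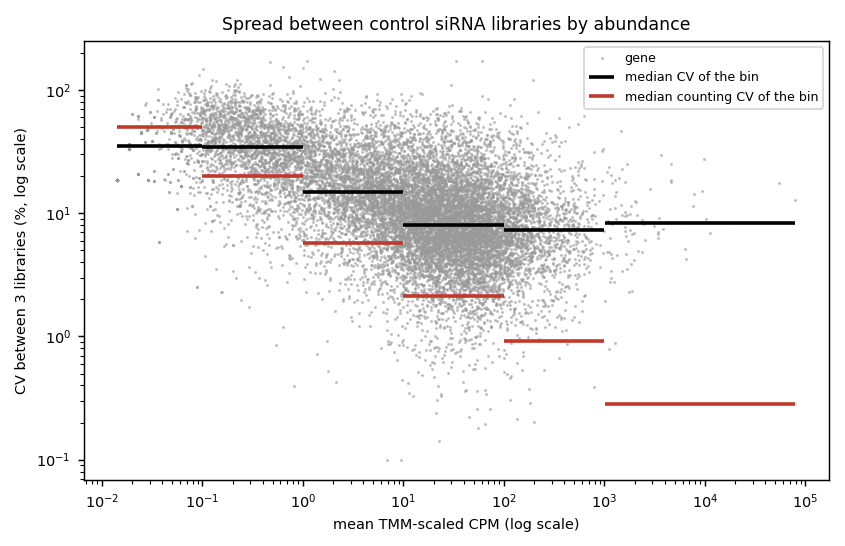
CV between the 3 control siRNA libraries (%, log axis) of each kept gene against its mean TMM-scaled CPM (log axis); black bars are the median CV of each abundance class and red bars the median CV that counting error alone gives. The black bars level off at 7.29% to 8.40% above 100 CPM, while the red bars go on falling to 0.285%.

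Some genes hardly varied. *Set* was at 64.0, 64.2 and 65.6 FPKM with a CV of 0.286% on the CPM scale, and *Ext2*, a heparan sulphate polymerase gene, at 67.6, 67.9 and 70.8 FPKM with 0.201%. They are among the 10 smallest CVs of 5117 genes, and 3 libraries give a CV with little precision. Of 17 genes used as references in qRT-PCR, all were kept. *B2m* had a CV of 2.30%, *Pgk1* of 2.99%, *Gapdh* of 9.58% and *Actb* of 9.66%, or 4.40% without replicate 3. *Hprt*, which the study used as its internal control, was at 78.0, 78.7 and 65.1 FPKM with a CV of 12.7%, the second highest of the 17 after *Ywhaz* at 36.7%. Both values rest on 1 library: without replicate 3 the CV of *Hprt* was 0.630%, the lowest of the 17, and without replicate 1 that of *Ywhaz* was 8.27%. *Actb* and *Actg1*, the cytoplasmic actins, moved together, with a ratio of 1.12, 1.11 and 1.14.

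Replicate 3 stood apart most often. Among the 5117 genes at 10 FPKM or more, it was the library farthest from the other two in 2452 (47.9%), replicate 1 in 1468 (28.7%) and replicate 2 in 1197 (23.4%). Of the 20 chondrocyte genes, 18 were lower in replicate 3 than the mean of the other two, with a median log2 difference of -0.32. Of the 12 fibroblast genes, 10 were higher, with a median of 0.53. Of all 14563 kept genes, 7458 were higher in replicate 3 and 7105 lower, with a median of 0.01. The hypertrophic list had a median of -0.60, with 7 of 9 genes lower, and the matrix protease list one of 0.36, with 31 of 37 genes higher. The synovial lining list, which shares *Prg4* with the chondrocyte list, had a median of 0.88, with 4 of 4 genes higher. The tendon and ligament list had one of 0.85, with 3 of 4 genes higher. The cell cycle list had one of 0.46, with 40 of 43 genes higher. In replicate 1, 40 of those 43 genes were lower, with a median of -0.33, and replicate 2 had one of -0.11. These directions were the same with RLE scaling, with library size alone and with FPKM. These values describe 1 library against the other two, so they have no replicate check, and whether the makeup of the culture, its state or its handling differed was not tested.

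The single genes below were picked as farthest from the other two in replicate 3, as members of a list, or after their values were seen. They are examples and no further check of the split. *Ptgs2*, *Inhba* and *Vcan* also rose from replicate 1 to replicate 2, and the CV of *Vcan* was still 40.0% without replicate 3. *Clec3a*, a cartilage lectin gene, was at 654, 579 and 239 FPKM, a log2 difference of -1.43 for replicate 3 against the other two. *Col10a1* differed by -2.20. *Fgfr3*, a receptor gene of proliferating chondrocytes, was at 75.2, 78.6 and 46.2 FPKM, while *Fgfr1* was at 39.5, 40.6 and 45.4 FPKM. On the high side, *Prg4* differed by 1.16, *Ptgs2* (cyclooxygenase-2), at 62.7, 107 and 195 FPKM, by 1.14, and *Inhba*, an activin subunit gene at 9.84, 20.7 and 38.7 FPKM, by 1.28. *Vcan*, versican, a proteoglycan of loose connective tissue, was at 5.41, 8.02 and 22.4 FPKM, so that *Acan* exceeded it by 276, 186 and 40.9 times. Of 4 tendon and ligament genes, 3 were highest in replicate 3: *Thbs4* at 22.5, 16.6 and 40.8 FPKM, *Scx* (scleraxis) at 20.1, 15.2 and 29.9 FPKM and *Tnmd* (tenomodulin) at 0.841, 1.13 and 3.53 FPKM. The other, *Mkx* (mohawk), was at 2.98, 2.93 and 2.99 FPKM. *Mki67*, the proliferation marker Ki-67, was at 1.54, 4.31 and 12.0 FPKM and *Top2a*, a topoisomerase of dividing cells, at 14.8, 22.6 and 32.5 FPKM; both were lowest in replicate 1 and highest in replicate 3. *Cdk4*, which led the cell cycle list, was at 155, 149 and 169 FPKM with a CV of 4.27%, or 2.53% without replicate 3.

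**Figure D5:**
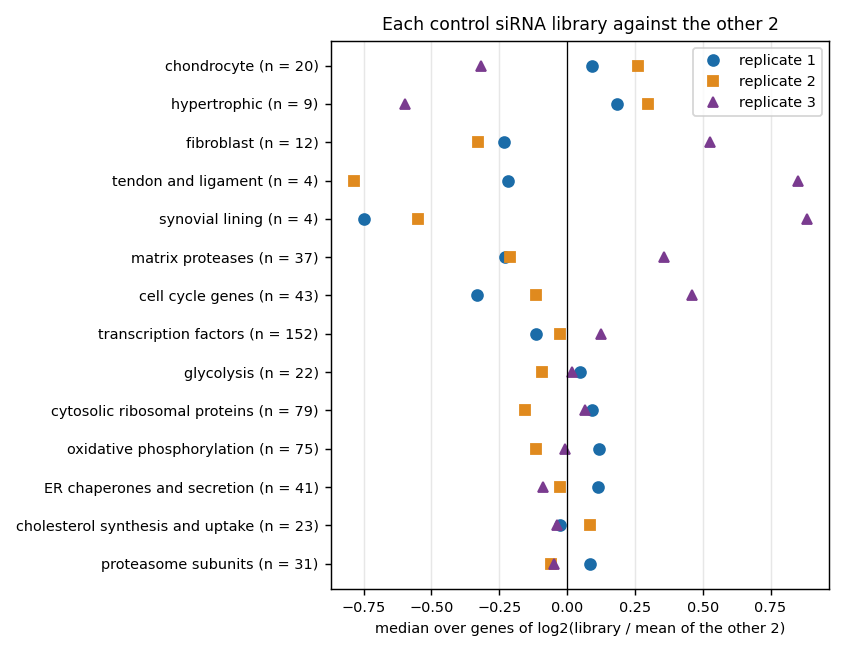
Median over the genes of each list of the log2 ratio of 1 control siRNA library to the mean of the other 2 (x axis), by replicate. Replicate 3 lies lowest for the chondrocyte (-0.32) and hypertrophic (-0.60) lists. It lies highest for the fibroblast (0.53), cell cycle (0.46), tendon and ligament (0.85) and synovial lining (0.88) lists.

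Replicates 1 and 2 differed in opposite directions for short and long transcripts. Among genes at 10 FPKM or more with an implied transcript under 1000 bases (577 genes), the median log2 difference from the other two libraries was 0.11 in replicate 1 and -0.10 in replicate 2. Over 8000 bases (104 genes) it was -0.09 in replicate 1 and 0.07 in replicate 2. The classes between lay in order. In replicate 3 the medians ran from -0.03 to 0.04 over the 5 length classes. Since each library is set against the other two, the opposite signs of replicates 1 and 2 are 1 contrast and not separate results. Of the 79 short genes of ribosomal proteins, 73 were lower in replicate 2, against 453 of the 577 genes under 1000 bases. The ribosomal protein genes had medians of 0.09 and -0.15 in replicates 1 and 2, near those of all genes under 1000 bases. The oxidative phosphorylation genes had medians of 0.12 and -0.12. Among the 10 genes farthest below the other two in replicate 1, the nuclear pore gene *Tpr* was at 5.01, 10.4 and 21.1 FPKM, the kinase gene *Rock2* at 5.10, 11.8 and 21.0 FPKM and the cohesin gene *Smc3* at 4.40, 11.7 and 16.3 FPKM. *Tpr* and *Rock2* were also among the 10 genes farthest above the other two in replicate 3. In replicate 1, 51 genes at 10 FPKM or more were over 2-fold lower than in the other two and 6 were over 2-fold higher. The part of RNA quality or library preparation in these differences was not tested.

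Of the 10 largest CVs among genes at 10 FPKM or more, 4, the 2 highest included, belonged to 2 pairs of near-identical copies. *Rps27* had 11653, 352 and 12997 reads in replicates 1, 2 and 3, and *Rps27rt*, its retrotransposed copy, had 74, 14369 and 66. Their sum was 11727, 14721 and 13063 reads, a CV of 9.16% in CPM. *Atp6v0c*, a proton pump subunit gene, had 94, 8422 and 7960 reads and *Atp6v0c-ps2*, its pseudogene, 5749, 11 and 3. Their sum had a CV of 1.89%. In each pair the reads changed sides in 1 library while the sum stayed within the usual spread, so the values of these 4 genes are uncertain on their own. The implied length of a transcript was within 1% in all libraries for 9909 of 11242 genes with at least 100 reads in each (88.1%), and differed by more than 1.2-fold in 58, *Rps27* and *Igf2* among them. *Prnp*, the prion protein gene, was at 19.2, 201 and 32.6 FPKM, with replicate 2 far above the others, and *Emp1*, a membrane protein gene, at 19.6, 95.3 and 124 FPKM, with replicate 1 far below.

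Promoter sequence was compared for the most abundant genes because the set joins matrix genes with housekeeping genes. Sequences were taken from RefSeq on GRCm38.p6, and of the first 100 genes by FPKM 71 had a promoter there and 58 had exactly 1. The motif TATAAA, the core of the TATA box, was searched on the gene's own strand with its first base 40 to 20 bases before the transcription start. It was found in 3 of these 58 (5.17%), in 131 of 9033 kept genes (1.45%) and in 553 of all 22862 genes with 1 promoter (2.42%). In matrix genes at 10 FPKM or more it was in 4 of 46 (8.70%), in ribosomal protein genes in 0 of 50, and in genes with no read in 5.75%. The motif GGGCGG, the core of a GC box, was found on either strand of the 250 bases before the start in 65.5% of the 58, in 60.1% of all kept genes and in 12.5% of genes with no read. A start of C followed by 4 pyrimidines, as in the mRNAs of the translation machinery, was read in 12 of 50 ribosomal protein genes (24.0%) and in 2.54% of kept genes. A match describes letters in the window and no factor. The last 50 bases before the start are shown for the 3 genes with the motif, in capitals, and for 3 of the first 10 genes without it.
Vim: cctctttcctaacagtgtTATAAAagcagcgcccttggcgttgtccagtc
Ppia: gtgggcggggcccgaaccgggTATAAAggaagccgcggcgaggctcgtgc
Cyr61: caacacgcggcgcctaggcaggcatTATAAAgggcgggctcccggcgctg
Sparc: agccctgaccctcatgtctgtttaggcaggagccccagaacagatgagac
Eef1a1: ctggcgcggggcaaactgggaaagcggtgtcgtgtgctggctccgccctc
Lect1: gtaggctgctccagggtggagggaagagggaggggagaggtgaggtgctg
The windows lie at chr2:13574261-13574310 on the plus strand in *Vim*, chr11:6415817-6415866 on the plus strand in *Ppia* and chr3:145649986-145650035 on the minus strand in *Cyr61*. Those of *Sparc*, *Eef1a1* and *Lect1* lie on the minus strand at chr11:55420081-55420130, chr9:78481725-78481774 and chr14:79662184-79662233. The first base of the motif lay 32 bases before the start in *Vim*, which encodes the intermediate filament vimentin, 29 bases before it in *Ppia*, cyclophilin A, and 25 bases before it in *Cyr61*.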

How the data were processed

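Per the methods, poly-adenylated RNA was made into stranded libraries (TruSeq Stranded mRNA) and sequenced on an Illumina NovaSeq instrument. The authors aligned reads to mm10 with HISAT2 2.1.0 and quantified genes with StringTie 1.3.4d against the UCSC annotation. Whether strand was used in counting was not given in the sources used here, so overlapping and antisense genes are uncertain, as are near-identical copies. In the deposited table, the read count of a gene is raw. The FPKM that the authors deposited beside it is scaled to transcript length and library total. Only the 3 control siRNA libraries were used, and the 6 columns of the *Sephs1* siRNA libraries were left out.

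Genes with a read in each control library were kept. TMM and RLE factors came from edgeR 4.0.16 in R 4.3.3. Shares, ranks, CVs and list sums were computed in Python 3.11.15 with pandas 2.3.3, and the CV calculation was tested on simulated data. No test between groups was made, since 1 group was used. Symbols were matched through RefSeq on GRCm38.p6 (mm10).

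The members, the 51 gene lists and the markers were chosen with earlier results of these data known, and the ratios, the copies, the length classes and the promoter motifs after seeing the values. Named genes were the 20 highest by FPKM and by reads, the 5 highest of each list, the 5 markers, the 20 highest transcription factors, the 10 largest and 10 smallest CVs, the 10 genes farthest from the other two libraries in each direction at 10 FPKM or more, and reference genes. A few others were named after their values were seen, among them *Mki67*, *Top2a*, *Fgfr3*, *Fgfr1*, *Tnfsf11*, *Igf1*, *Ldhb*, *Pitx1*, *Tbx4*, *Tbx5*, *Hoxa10*, *Epas1*, *Sephs1*, *Sephs2*, *Cyr61*, *Scx*, *Mkx* and the chains used in ratios. Genes encoded by the mitochondrial genome were not analysed here. The alternatives were another unit, scaling, filter and each library left out. Leaving out a library for the CVs of single genes, the CVs by abundance class and the counts by spread was added after seeing the data.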

Additional observations from a re-analysis of the deposited data

How the results depend on the processing

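As FPKM in place of reads, the share of the 10 most abundant genes was 11.6% in place of 21.5%. With no filter on low genes, the median CV was 13.5% in place of 11.4%. Leaving out each library in turn gave a share of the 10 most abundant genes from 20.9% to 22.5%, 314 to 355 genes holding 50% of the reads, 10869 to 10966 genes at 1 FPKM or more, and a median CV from 7.05% (without replicate 3) to 11.2%. The other alternatives for these results, with RLE scaling, library size, FPKM, TMM-scaled CPM at 1 or more, 1 FPKM in every library, the same 10 genes in each library or 10 reads in each library, moved them by less than the spread or by less than 1.5 times. The number of genes kept was 16535 with any read and 13392 with 10 reads in each library.

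Ranks depended on the unit, and 204 of 273 named genes moved by more than their spread over libraries when ranked by reads. The share of 42 of 49 lists moved as FPKM, and 271 of 273 mean FPKM values moved when rescaled to sum to 1000000, since the FPKM of a library summed to 381398 on average. Leaving out a library moved none of the 147 list shares or 819 means by more than 1 SD, which 3 libraries bound by construction.

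No paired analysis was possible because 1 group was used. With 3 libraries, SDs and CVs have little precision, counting error limits genes below 1 CPM, and no outlier was tested in groups of 3.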
